A study of Mus musculus with 80 samples.

Results

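Hematopoietic stem cells (HSCs) from old mice carried very different amounts of the transcripts that mark HSC aging, and 703 of the 2758 old cells kept held few or none of them. These 703 cells are described here. They were chosen by the summed unique molecular identifiers (UMIs, 1 per captured transcript) of 5 genes, *Clu*, *Selp*, *Gpr183*, *Sbspon* and *Ramp2*, set against all UMIs of the cell: under 1 per 10000 for the low-marker cells, and 5 or more for the 686 high-marker cells used as reference. Another 1369 old cells lay between these limits. Since the 5 genes chose the cells, all values of these genes are a description only. The genes were left out of every other value below, including the totals to which counts were scaled.

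The study asked whether the HSCs of old mice age unevenly, using single-cell RNA-seq (scRNA-seq) and bulk RNA-seq of sorted cells from male C57BL/6 mice with no genetic change. HSCs were sorted from bone marrow as lineage-negative, Sca-1+ c-Kit+ CD48- CD34- CD150+ cells. The scRNA-seq data came from 1 library of untreated young mice (2 to 3 months) and 1 of untreated old mice (22 to 24 months), read from the 3′ end, and the bulk data from 3 libraries each of young HSCs, of old HSCs and of old HSCs sorted into 4 groups by CD150 level, group 1 lowest and group 4 highest, the 4 groups coming from the same 3 mice. The ages are those of the methods, while the study's list of libraries gives 2 to 4 and 20 to 24 months and a figure legend gives the old scRNA-seq library a single age inside the range of the methods, and how many mice went into each scRNA-seq library is not given in the sources used here. Another 2 scRNA-seq libraries, of cells taken back from recipients 14 days after grafting CD150-low or CD150-high old HSCs, bring the cells kept in the series to 8201. No scRNA-seq difference has a replicate check, because each age has 1 library, so intervals at 95% cover counting error only and no p-value is given for them.

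HSCs sit at the top of blood formation and remain in the marrow for life, most of them out of the cell cycle at a given time. With age the HSC pool of the mouse grows, its output leans toward myeloid cells and platelets, and a characteristic set of transcripts accumulates, among them adhesion and platelet genes such as *Selp* and *Vwf*. CD150, encoded by *Slamf1*, is a surface receptor used to sort HSCs, and its level is known to be higher on HSCs with a platelet and myeloid bias.

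*Clu* encodes the secreted chaperone clusterin, *Selp* the adhesion receptor P-selectin, *Gpr183* an oxysterol receptor that guides cell migration, *Ramp2* a subunit of the adrenomedullin receptor, and *Sbspon* a secreted matrix protein. Of the 703 low-marker cells, 351 had no UMI of the 5 genes, 322 had exactly 1, and 30 had 2 or more, with at most 4. The high-marker cells had a median of 10 such UMIs. The level of *Clu* was 8.42 CPM (UMI counts scaled to a common total) in low-marker cells, 64.6 CPM in the cells between, 159 CPM in high-marker cells and 22.3 CPM in all 1104 young cells. *Selp* stood at 19.7, 98.6, 171 and 11.7 CPM in the same order of cell groups. For *Gpr183* these levels were 3.52, 47.2, 174 and 1.98 CPM. *Sbspon* and *Ramp2* followed the same order among old cells, with 3.72 and 2.94 CPM in low-marker cells and 115 and 222 CPM in high-marker cells. The low-marker cells thus held less *Clu* and *Ramp2* than young cells, whose *Ramp2* level was 9.62 CPM, and more of the other 3 genes.

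The values ran on without a gap at either limit. The highest value among low-marker cells was 0.9993 UMIs per 10000 and the lowest outside was 1.0015, while 4.9944 and 5.0013 lay on either side of the upper limit. Within 0.2 of the limit of 1 lay 201 cells, and within 0.2 of the limit of 5 lay 91 cells. The low-marker cells are a range of the value and not a cell type, and for a cell with a single UMI of the 5 genes the value is set by its depth alone. The median value was 2.47 per 10000 in old cells and 0 in young cells. Values under 1 were found in 25.5% (23.9 to 27.2, exact binomial interval) of old cells against 85.0% (82.7 to 87.0) of young cells. With every cell reduced at random to 10000 UMIs, leaving out 371 old and 126 young cells that had fewer, the shares were 17.4% of 2387 old cells and 74.8% of 978 young cells. In the thinned old cells the summed count of the 5 genes had a mean of 3.49 and a variance of 12.9, and 17.4% of cells had none where a Poisson count of the same mean gives 3.04%. In the thinned young cells 74.8% had none where a Poisson count gives 61.5%. A Poisson count covers counting error only and these genes chose the cells, so both spreads are a description only.

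**Figure D1:**
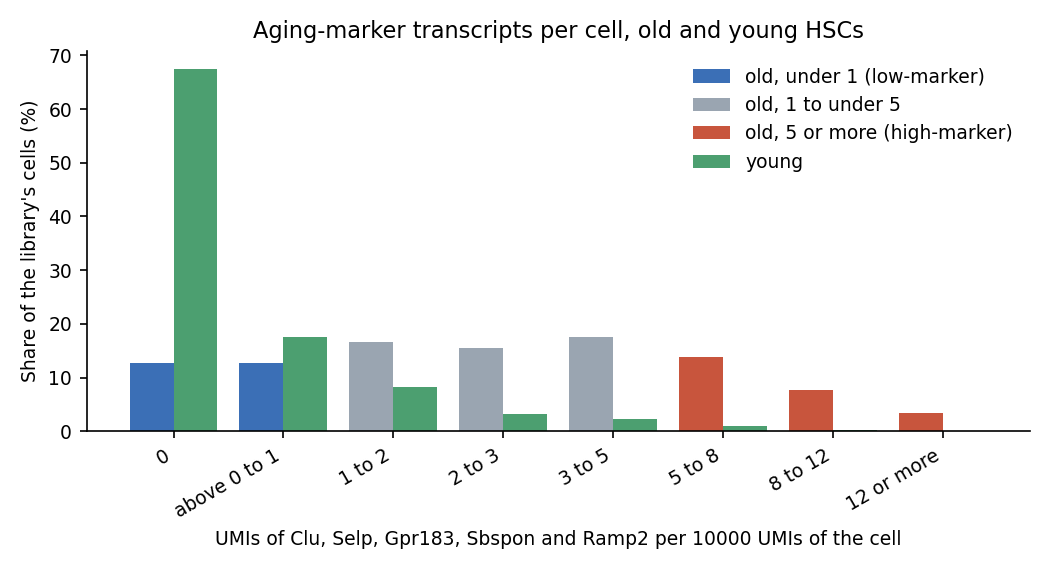
Distribution of the summed UMIs of *Clu*, *Selp*, *Gpr183*, *Sbspon* and *Ramp2* per 10000 UMIs of a cell (horizontal axis) as the share of cells in percent (vertical axis) in the young (green) and the old scRNA-seq libraries, with low-marker cells in blue and high-marker cells in red. Old cells fill all steps, with a median of 2.47, while 85.0% of young cells lay under 1.

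Each of the 5 genes was also lower when it took no part in the choice. When 1 gene was left out of the sum, with the limits lowered by its share of the summed UMIs, the omitted gene was still lower in the low cells chosen by the other 4. The difference (log2 ratio of CPM, low to high cells) was -3.00 (-3.24 to -2.77) for *Ramp2*, -2.53 (-2.79 to -2.27) for *Sbspon*, -1.91 (-2.10 to -1.73) for *Gpr183* and -1.65 (-1.82 to -1.49) for *Clu*. It was smallest for *Selp*, at -0.72 (-0.85 to -0.59). Most low cells chosen in this way were the low-marker cells themselves, from 601 of 912 without *Selp* to 591 of 641 without *Ramp2*. The study names all 5 genes as HSC aging markers, so a shared direction was likely beforehand and these values are a description only.

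The low-marker cells were not the shallow ones. Their median was 13389 UMIs and 3626 detected genes per cell, against 12553 UMIs and 3426 genes in high-marker cells, 13706 UMIs in the cells between and 14502 UMIs in young cells. Low-marker cells reached further into high depth, with a 90th percentile of 20585 UMIs against 17216 in high-marker cells and with 86 against 25 cells over 20000 UMIs. Low-marker cells with no UMI of the 5 genes were shallower (median 12652) than those with at least 1 (median 14228). Mitochondrial UMIs made up a median of 2.94% in low-marker and 3.29% in high-marker cells. Scrublet called 5 doublets among the 2758 old cells, 1 of them a low-marker cell, a share so low that the caller cannot be taken to have worked. The old library shared 2 cell barcodes with the young one, 1 of them among the kept cells.

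Transcripts of HSC identity genes were present in low-marker cells. Of 13 measured genes of that list 3 (*Hoxb5*, *Fgd5* and *Slamf1*) were lower than in high-marker cells past 1.5-fold and none was higher, with a median log2 ratio of -0.46. Of all 6070 genes compared, 2.59% were lower and 4.1% were higher. *Hlf*, a transcription factor that marks HSCs, had a level of 357 CPM (345 to 368) in low-marker and 325 CPM (313 to 337) in high-marker cells. The growth factor receptor *Kit* stood at 258 CPM in both groups, and the transcription factor *Meis1* at 227 CPM in both. *Procr*, which encodes the surface marker EPCR, was at 176 CPM in low-marker, 254 CPM in high-marker and 109 CPM in young cells. Several defining transcripts of mature cells outside the sort gate were absent or rare. *Cd79a*, *Pax5* and *Ms4a1* of B cells, *Cd3d*, *Cd3e* and *Cd3g* of T cells and *Cdh5* of endothelium had no UMI in the 703 cells, and *Marco* of macrophages likewise. The list of 14 erythroid genes had 1249 CPM in low-marker and 1330 CPM in high-marker cells, led by the carbonic anhydrase *Car2* with 1074 and 1115 CPM. Of 8 B cell genes 5 had no UMI, and the list had 36.6 and 36.3 CPM, led by *Cd79b* with 34.7 and 32.9 CPM. Of 9 T and NK cell genes 6 had no UMI, and the list had 30.4 CPM in low-marker and 57.4 CPM in high-marker cells. Its 2 measured members went opposite ways, with *Klrb1c* lower and *Nkg7* higher in low-marker cells (22.2 against 4.15 CPM). Of 5 mast cell genes 4 had no UMI. The myeloid progenitor list of 12 genes had 1009 CPM in low-marker and 1088 CPM in high-marker cells, most of it the serine protease *Prtn3*. The list of 9 early progenitor genes was higher in low-marker cells, with 88.1 CPM against 64.1 CPM in high-marker and 184 CPM in young cells. It was led by *Cd34*, which the gate selects against, with 60.7 and 36.6 CPM. Of its other genes *Il7r* and *Dntt* had no UMI in low-marker cells and *Cd48* was under 1 CPM.

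Genes outside the rule were then compared between low-marker and high-marker cells. Of 48 measured genes of a published aging list, without the 5 rule genes, 28 were lower in low-marker cells past 1.5-fold, and of 31 measured S phase genes 25 were higher. The lower genes included *Klrb1c*, *Cldn5*, *Neo1* and *Vwf*, and the higher ones were led by histone and mitotic genes such as *Mki67* and *Ccnb2*. Of 6070 genes with at least 20 CPM in at least 1 of the 2 groups, 157 were lower in low-marker cells past 1.5-fold, which is 2.59% of those compared, and 249 were higher, which is 4.1%. The median log2 ratio of all 6070 genes was 0.06. For a gene that reached 20 CPM in only 1 of the 2 groups, the direction was set by this minimum. Among cells of 10000 to 20000 UMIs the number of higher genes was 122.

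The 12 genes with the lowest ratio were *Hoxb8*, *Klrb1c*, *Cldn5*, *Neo1*, *Vwf*, *Nrg4*, *Dnm3*, *Rdh10*, *Lbhd2*, *Chrm3*, *Klf2* and *Sox18*. *Klrb1c*, which encodes the lectin-like receptor NK1.1, had 8.13 CPM (6.47 to 10.1) in low-marker cells, 23.8 CPM in the cells between and 53.1 CPM (48.4 to 58.1) in high-marker cells, against 4.49 CPM in young cells. Its log2 ratio was -2.71 (-3.06 to -2.37), or 6.54-fold lower. *Cldn5*, a tight junction protein best known from endothelium, stood at 13.02, 33.1 and 73.9 CPM over the same 3 groups of old cells and at 5.60 CPM in young cells. For both genes the cells between lay between the extremes and the low-marker cells stayed above young cells. *Vwf*, the platelet-binding factor of blood clotting, was different: at 20.4 CPM (17.7 to 23.3) the low-marker cells were below the 29.6 CPM (27.1 to 32.3) of young cells, while high-marker cells had 82.7 CPM.

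Among the transcription factors, *Hoxb8* of the homeobox cluster had 2.84 CPM in low-marker and 20.5 CPM in high-marker cells, with 3.96 CPM in young cells. *Sox18*, a factor of vessel development, was at 13.3 and 43.3 CPM with 11.7 CPM in young cells, so low-marker and young cells were close. *Klf2*, a factor of quiescence and trafficking, had 6.85 CPM in low-marker cells, 22.5 CPM in high-marker cells and 17.3 CPM in young cells. Of the receptors and ligands, *Neo1*, the receptor for netrins and repulsive guidance molecules, had 6.56 and 26.9 CPM in low-marker and high-marker cells and 8.16 CPM in young cells. *Nrg4*, a ligand of the epidermal growth factor family, was at 9.69 and 34.9 CPM, and *Chrm3*, a muscarinic acetylcholine receptor, at 7.64 and 25.2 CPM. *Chrm3* was near 0 in young cells (0.642 CPM), so that low-marker cells were on the old side of it. *Dnm3*, a dynamin that cuts membrane vesicles, had 6.36 and 22.4 CPM and *Rdh10*, an enzyme of retinoic acid synthesis, 9.99 and 34.1 CPM. *Lbhd2* had 8.03 and 27.3 CPM. Over all 157 lower genes, 98 had a higher level in low-marker cells than in young cells.

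**Figure D2:**
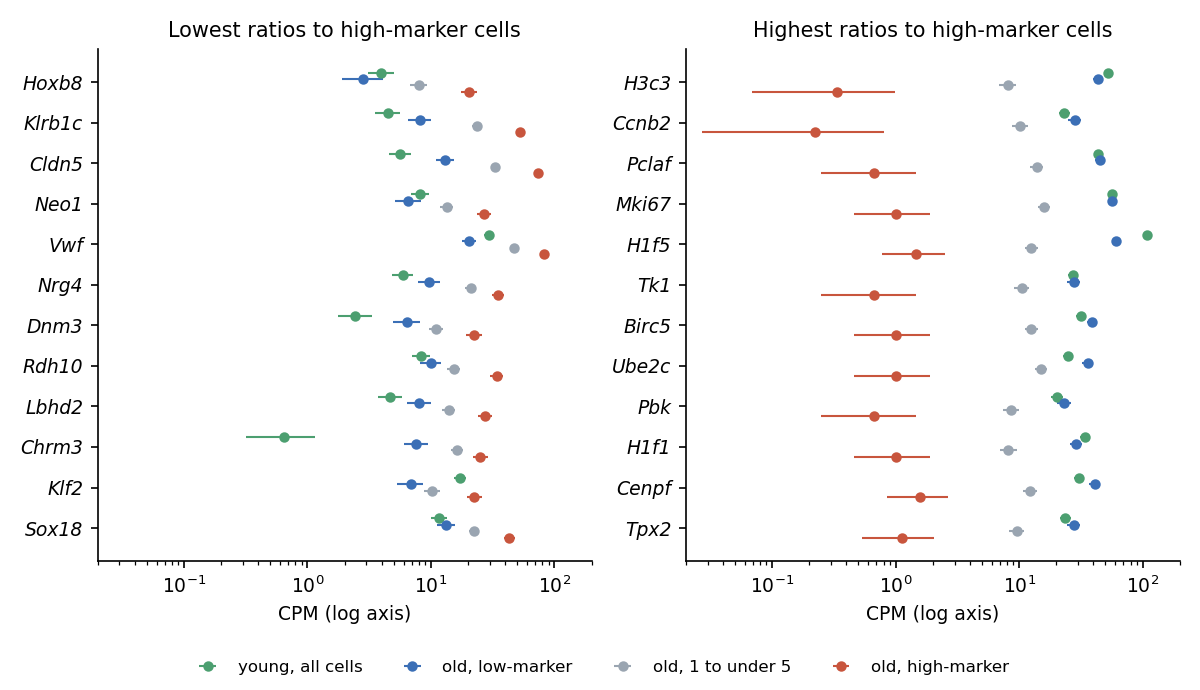
Level of the 12 genes with the lowest and the 12 with the highest ratio, in CPM on a log axis, for low-marker cells, the cells between, high-marker cells and all young cells, with exact 95% Poisson intervals as bars. For lower genes such as *Klrb1c* the 3 groups of old cells are ordered from 8.13 to 53.1 CPM, and for higher genes such as *Mki67* low-marker and young cells nearly coincide at 56.6 and 57.0 CPM.

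The 12 genes with the highest ratio were *H3c3*, *Ccnb2*, *Pclaf*, *Mki67*, *H1f5*, *Tk1*, *Birc5*, *Ube2c*, *Pbk*, *H1f1*, *Cenpf* and *Tpx2*. *Mki67*, the proliferation marker Ki-67, had 56.6 CPM (52.1 to 61.4) in low-marker cells, 16.0 CPM in the cells between, 1.01 CPM (0.461 to 1.91) in high-marker cells and 57.0 CPM (53.5 to 60.7) in young cells. Its level in low-marker cells was 56.1-fold that in high-marker cells and did not differ beyond counting error from young cells. *Ccnb2*, the mitotic cyclin B2, had 289 UMIs or 28.3 CPM in low-marker cells and 2 UMIs in all high-marker cells, with a log2 ratio of 6.98 (5.11 to 10.03). *H3c3*, a histone H3 gene, had 444 UMIs against 3, with a log2 ratio of 7.02 (5.46 to 9.30). Histone genes have near-identical copies, so the split of their counts among copies is uncertain.

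The other 9 genes of this group had between 23.3 CPM (*Pbk*, a mitotic kinase) and 61.4 CPM (*H1f5*, a linker histone) in low-marker cells and at most 1.57 CPM (*Cenpf*, a kinetochore protein) in high-marker cells. *Pclaf*, a partner of the replication clamp, had 45.3 against 0.672 CPM, and *Tk1*, the thymidine kinase of DNA synthesis, 27.7 against 0.672 CPM. *Birc5* (survivin), *Ube2c* (a ubiquitin enzyme of mitotic exit) and *Tpx2* (a spindle factor) had 39.0, 36.0 and 27.6 CPM in low-marker cells against 1.01, 1.01 and 1.12 CPM. In young cells *H1f5* was higher still, at 108 CPM, while *Birc5* (31.5 CPM) and *Ube2c* (24.8 CPM) were lower than in low-marker cells.

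Most UMIs of these 12 genes came from few, deep cells, as a split by depth chosen after seeing the data showed. Of the 578 UMIs of *Mki67* in low-marker cells, 494 lay in the 86 cells over 20000 UMIs, where the level was 226 CPM. Among cells of 10000 to 20000 UMIs (552 low-marker and 540 high-marker cells), *Mki67* had 11.04 against 0.550 CPM, a log2 ratio of 4.33, and *Ccnb2* 12.1 against 0.137 CPM. All 12 genes were higher in low-marker cells there, by log2 ratios of 1.83 (*H1f5*) to 6.46 (*Ccnb2*), but none reached 20 CPM. With each cell weighted equally *Mki67* had 30.03 against 4.46 CPM, a log2 ratio of 2.75 where the summed UMIs gave 5.81, and *Ube2c* had one of 1.88. With cells thinned before the rule was applied, the log2 ratios were 4.51 for *Ccnb2*, 4.13 for *Pclaf* and 3.36 for *Birc5*. In cells scored G1 no gene of the 12 was above 2.15 CPM in either group, and the direction was not kept. There *H1f5*, *Tk1*, *Birc5* (2 against 7 UMIs), *Ube2c* (1 against 4 UMIs) and *Pbk* were lower in low-marker cells and the others higher, on few UMIs.

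Promoters were searched for letters known from cell cycle genes. The CCAAT box and the cell cycle homology region (CHR, TTTGAA) are elements through which many mitotic genes are controlled. The stretch 158 to 73 bases before the start of *Mki67* that the promoter window uses, 1 of several that RefSeq lists and not the outermost (chr7:135716452-135716537, minus strand), and that 89 to 4 bases before the start of *Ube2c* (chr2:164769840-164769925, plus strand) are shown 5′ to 3′ from RefSeq on GRCm38.p6, with both elements in capitals on whichever strand they lie, because they hold both within a short span:
Mki67: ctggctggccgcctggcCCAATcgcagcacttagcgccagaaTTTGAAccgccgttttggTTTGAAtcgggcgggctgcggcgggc
Ube2c: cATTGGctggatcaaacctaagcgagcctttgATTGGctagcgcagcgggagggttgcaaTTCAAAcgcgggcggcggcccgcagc
In windows from 250 bases before to 50 after the start, read on both strands, CCAAT was found in 114 of the 208 matched promoters of genes higher in low-marker cells (54.8%), in 42 of 113 for lower genes (37.2%) and in 37.9% of all 27025 promoters. An E2F word (TTTCCCGC, TTTCGCGC, TTTGCCGC or TTTGGCGC) was in 27 of 208 (13%), 1 of 113 (0.885%) and 2.32% of all. TTTGAA was in 21.2%, 15.9% and 18.1%. Among the 12 highest genes 10 had a promoter window, of which 8 held CCAAT, 6 TTTGAA and 1 an E2F word, and of 9 windows of the 12 lowest genes 4 held CCAAT, 4 TTTGAA and none an E2F word. No word contains another, though their end letters can be shared, and a match is only a run of letters.

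Cell cycle phase followed the same split. In cells thinned to 10000 UMIs and scored from lists of 43 S phase and 54 G2/M genes, 258 of 638 low-marker cells (40.4%, 36.6 to 44.4) were scored S or G2/M, against 99 of 565 high-marker cells (17.5%, 14.5 to 20.9) and 393 of 978 young cells (40.2%, 37.1 to 43.3). G2/M was the call for 27 low-marker cells (4.23%) and 2 high-marker cells (0.354%). Because a phase score is a relative call, the summed UMIs of both lists were also counted. At least 50 such UMIs were found in 98 of 638 low-marker cells (15.4%), 3 of 565 high-marker cells (0.531%) and 216 of 978 young cells (22.1%), while the medians were close, at 25, 21 and 29 UMIs. The difference was widest among the cells with most cycle transcripts. At the 90th percentile low-marker cells had 73.3 and high-marker cells 29 such UMIs, and at the 25th percentile 20 and 17. Cells scored S or G2/M were deeper before thinning, with a median of 16084 UMIs among low-marker cells against 12980 for those scored G1.

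Of the 31 S phase genes with at least 20 CPM, 25 were higher in low-marker cells past 1.5-fold and none was lower, and of 31 G2/M genes 23 were higher and none was lower. Of all genes compared, 4.1% were higher and 2.59% were lower. A gene that reached 20 CPM in low-marker cells alone could only be higher. In cells scored G1, 14 S phase and 16 G2/M genes were measured, and none was past 1.5-fold. In total the S phase list had 1938 CPM in low-marker, 863 CPM in high-marker and 2345 CPM in young cells, and the G2/M list 2840, 1318 and 2866 CPM. When only cells scored G1 were kept, the log2 ratios of the lists went from 1.17 to 0.12 and from 1.11 to 0.11, and these lists also enter the phase score. Among cells of 10000 to 20000 UMIs they were 0.48 and 0.43, and with each cell weighted equally 0.86 and 0.73. In the cells scored G1 5970 genes could be compared, of which 101 were lower in low-marker cells (1.69%) and 97 higher (1.62%), and these included 90 of the 157 lower and 63 of the 249 higher genes of all cells. On the S or G2/M lists were 48 of the 249 higher genes.

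Next, aging genes outside the rule were counted in lists drawn up by the study or from public data. Summed over the published list, their level in low-marker cells lay between those of young and high-marker cells. Single genes such as *Vwf* and *Vldlr* did not lie between. The 100 published aging genes, a list that the study took from a public comparison of old and young HSCs, had 2613 CPM (2582 to 2645) in low-marker, 4080 CPM (4038 to 4122) in high-marker and 1057 CPM in young cells without the 5 rule genes. The log2 ratio of low-marker to high-marker cells was -0.64 in all cells and -0.48 in cells scored G1, and low-marker cells stood 1.31 log2 units above young cells. Of 48 measured members, 28 were lower in low-marker cells past 1.5-fold and 1 was higher, with a median log2 ratio of -0.75 beside 0.06 for all genes compared. Of all genes compared, 2.59% were lower and 4.1% were higher. A member that reached 20 CPM in high-marker cells alone could only be lower.

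The 28 lower genes did not all reach the young level. Of them, 23 were still above young cells past 1.5-fold in low-marker cells. *Nupr1*, a stress-induced chromatin protein, had 244 CPM in low-marker, 413 CPM in high-marker and 42.7 CPM in young cells, with a log2 ratio of -0.76 that was -0.56 and within 1.5-fold in cells scored G1. *Cavin2*, a coat protein of caveolae that the study names as an aging gene but that is not on the published list, had 197, 357 and 51.5 CPM. *Alcam*, an adhesion molecule of the immunoglobulin family, had 86.4, 160 and 43.0 CPM, and *Jam2*, a junctional adhesion molecule, 18.9, 52.4 and 11.2 CPM. *Itgb3*, the integrin beta chain of platelets, had 18.01, 41.1 and 6.12 CPM. In each of these 5 genes low-marker cells lay between young and high-marker cells.

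Another 19 published aging genes were within 1.5-fold between low-marker and high-marker cells, and 14 of these were above young cells past 1.5-fold in low-marker cells. Here too the share over all genes was counted only against young cells under 1 (1.48% higher). *Aldh1a1*, an enzyme that makes retinoic acid, had 117 CPM (110 to 123) in low-marker and 114 CPM (107 to 121) in high-marker cells, against 34.8 CPM in young cells. *Maf*, a transcription factor, had 22.4, 19.6 and 4.08 CPM. The metallothionein *Mt1* had 193, 239 and 24.0 CPM, and *Plscr2*, a phospholipid scramblase, 85.8, 107 and 6.76 CPM. For these genes the low-marker cells were as far from young cells as the high-marker cells, or nearly so. The 1 gene higher in low-marker cells was *Vldlr*, a lipoprotein receptor, with 36.7 CPM against 13.6 CPM and 19.2 CPM in young cells.

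Per cell the shift was gradual. In cells thinned to 10000 UMIs the published aging genes had a median of 26 UMIs in low-marker cells, 33 in the cells between, 39 in high-marker cells and 10 in young cells. The low-marker cells spread from 15 UMIs at the 10th to 40 at the 90th percentile. Of them 12.2% reached the high-marker median, and 2.35% were at or under the young median. Over finer steps of the marker value the list climbed from 2541 CPM in cells with no UMI of the 5 genes to 2672 CPM in the rest of the low-marker cells, 3069 CPM at values of 1 to 2, and 3960 CPM at 5 to 8.

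**Figure D3:**
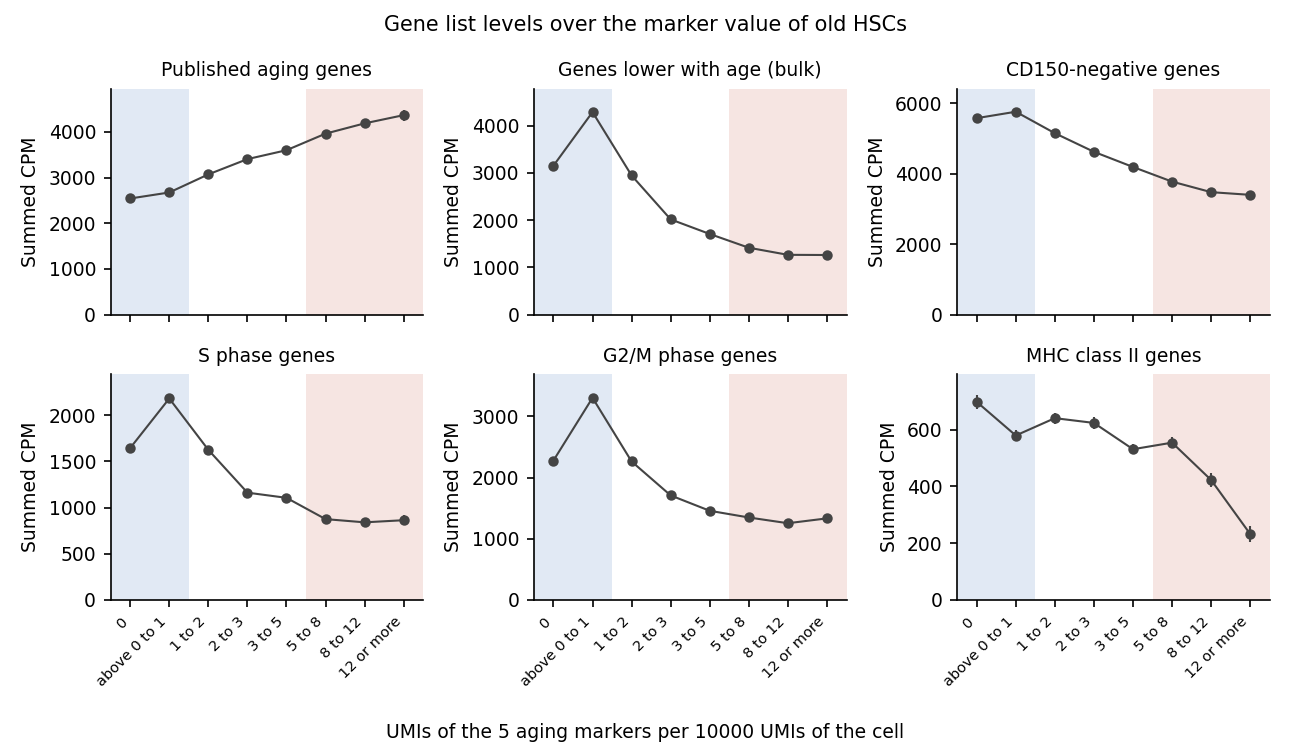
Level of gene lists in CPM against the 5-gene value in UMIs per 10000 for old cells, in 8 steps (low-marker shaded blue, high-marker red), with exact 95% Poisson intervals. The published aging list climbs step by step from 2541 CPM in cells with no marker UMI, and the list lower with age is highest in low-marker cells with a marker UMI, at 4284 CPM.

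**Figure D4:**
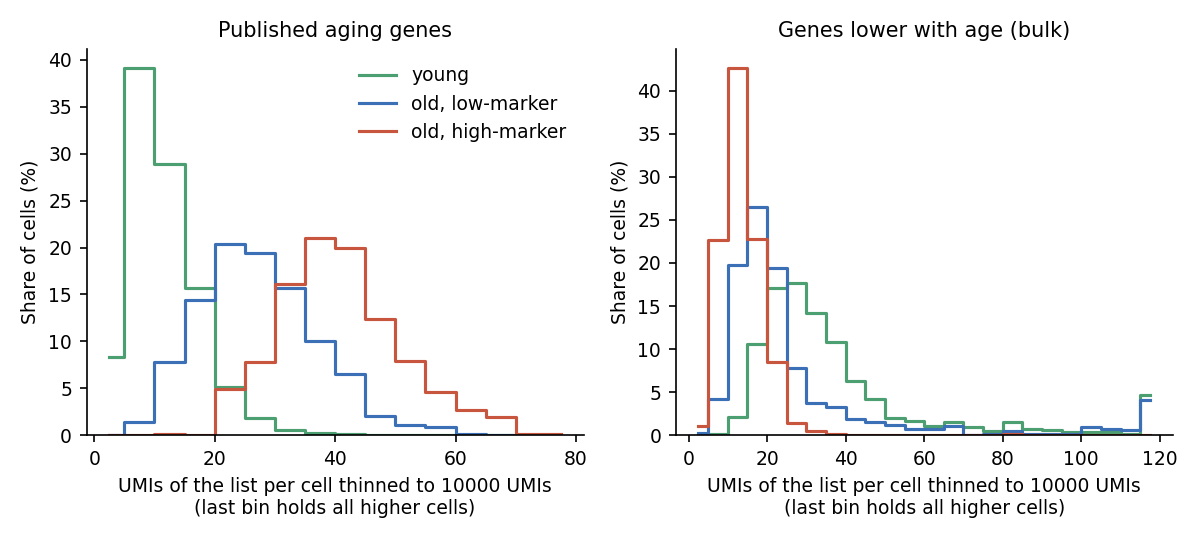
UMIs of a gene list per cell after thinning to 10000 UMIs (horizontal axis) against the share of cells in percent (vertical axis) for low-marker, high-marker and young cells. For the published aging genes the 3 distributions overlap, with medians of 26, 39 and 10 UMIs.

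The genes that the study found lower in old HSCs behaved in the opposite direction. This list of 282 genes had 3772 CPM in low-marker, 1350 CPM in high-marker and 4627 CPM in young cells, and 47 of 52 measured members were higher in low-marker cells past 1.5-fold, with none lower. The minimum of 20 CPM was asked of the old cells, so members low in both groups of old cells are not among the 52. Members that reached it in low-marker cells alone, such as *Pbk*, *Cenpf* and *Tpx2*, could only be higher. The count of 47 is thus partly set by the minimum. Of all genes compared, 4.1% were higher. The higher members included mitotic genes, such as the 3 just named. The log2 ratio of the list was 1.48 in all cells, 0.81 in cells of 10000 to 20000 UMIs and 0.50 in cells scored G1. In cells scored G1, 8 of 20 measured members were higher past 1.5-fold and none was lower.

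Some members of this list that are not known as cell cycle genes were higher as well, while 5 members, *Ebi3*, *Lsp1*, *P2ry14*, *Sik1* and *Susd1*, were within 1.5-fold. *Serpinb1a*, an inhibitor of neutrophil proteases, had 49.6 CPM in low-marker, 14.1 CPM in high-marker and 52.4 CPM in young cells, and in G1 cells 30.5 against 12.8 CPM. *Pf4*, the platelet chemokine CXCL4, had 112, 34.6 and 96.8 CPM, with a log2 ratio of 1.69 in all and 1.66 in G1 cells. *Syk*, a tyrosine kinase of immune receptors, had 30.5, 9.86 and 35.2 CPM, and *Arhgap30*, a GTPase-activating protein, 36.8, 10.5 and 56.3 CPM. *Nkg7*, a granule membrane protein of lymphocytes, had 22.2, 4.15 and 28.2 CPM. *Cd34*, the surface marker that the sort gate selects against, had 60.7, 36.6 and 80.8 CPM, past 1.5-fold in all cells (0.73) but not in cells scored G1 (0.48). *Rnase6*, an antimicrobial ribonuclease on the list but under the minimum of 20 CPM, had 18.8, 4.26 and 33.7 CPM. Off the list, *Vim*, the filament protein vimentin, had 265, 104 and 250 CPM, and *Cdk6*, a kinase of the step from G1 to S phase, 107, 44.5 and 121 CPM. In each of these genes but *Rnase6*, which lay about midway, the level of low-marker cells was nearer to young than to high-marker cells.

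Lists tied to CD150 differed as well. The study chose 131 genes that go up and 103 that go down with CD150 in its bulk libraries of sorted old HSCs. It had picked CD150 itself with the help of scores from these scRNA-seq cells, so the lists and the level of *Slamf1* are not independent of them and are given as a description. Of 68 measured genes that go up, 23 were lower in low-marker cells past 1.5-fold and none was higher, and the list as a whole had a log2 ratio of -0.24. Of 54 measured genes that go down, 20 were higher and none was lower, with a log2 ratio of 0.64. Of all genes compared, 2.59% were lower and 4.1% were higher. *Slamf1* itself, which encodes CD150, had 27.2 CPM (24.1 to 30.6) in low-marker, 45.1 CPM (40.8 to 49.7) in high-marker and 37.7 CPM in young cells, 1.65-fold lower in low-marker cells. In cells scored G1 its log2 ratio was -0.63.

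Of 11 genes that act with the 5 markers, as receptors, receptor partners, ligands or enzymes that make or break down ligands, 4 had at least 20 CPM, and 2 of them, *Ramp1* and *Vldlr*, were higher in low-marker cells past 1.5-fold. Among all genes compared, 4.1% were higher. *Ramp1*, a paralog of *Ramp2* that pairs with the same receptor *Calcrl*, went the other way from *Ramp2*, with 279 CPM in low-marker, 166 CPM in high-marker and 244 CPM in young cells. *Calcrl* itself had 37.3, 46.4 and 41.1 CPM.

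Genes of stress, immunity and quiescence were mixed. For the counts below, 2.59% of all genes compared were lower and 4.1% higher past 1.5-fold. In cells scored G1 these shares were 1.69% and 1.62%. The 5 MHC class II genes, which present antigen, had 633 CPM in low-marker, 473 CPM in high-marker and 256 CPM in young cells. Over the marker value they ran from 698 CPM in cells with no UMI of the 5 genes to 232 CPM in the 93 cells at 12 or more. Of 4 measured members 1, *H2-Eb1*, was higher in low-marker cells past 1.5-fold in all cells, and all 4 were in cells scored G1, where *H2-Eb1* had 105 against 51.3 CPM and *Cd74*, the invariant chain, 326 against 205 CPM. The 13 interferon genes had 3285, 4579 and 4780 CPM in low-marker, high-marker and young cells, with 2 of 10 lower and 1 higher. For the 7 metallothionein and stress genes the totals were 569, 821 and 183 CPM, with 3 of 6 lower. Of 12 measured adhesion genes 3 were lower and none was higher, with a median log2 ratio of -0.03 and a ratio of the summed list of -0.21. Of 10 measured megakaryocyte genes 3 were lower and 1 was higher, with a median of 0.19, while the summed list went the other way, with -0.22 (-0.27 to -0.17) in all cells and -0.30 in cells scored G1. The summed HSC identity list differed by -0.19 in all cells but by 0.03 in cells scored G1. Of 6 measured dormancy genes 1 was lower and none was higher, and the list differed by -0.36 in all cells and by -0.07 in cells scored G1. *Mycn*, a growth-promoting transcription factor, had 77.8 CPM in low-marker and 162 CPM in high-marker cells, whereas its relative *Myc* had 65.3 and 39.7 CPM, within 1.5-fold in cells scored G1 (0.57).

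*Apoe*, a lipid carrier and the only measured gene of the macrophage list, was lower in low-marker cells past 1.5-fold. The list of 10 genes had 687 CPM in low-marker, 1237 CPM in high-marker and 667 CPM in young cells, almost all of it *Apoe* with 680, 1232 and 652 CPM. The defining genes *Marco* and *Cd5l* had no UMI in low-marker cells, and *Mrc1*, *Adgre1* and *Csf1r* were under 1 CPM. The list of 5 endothelial genes had 6.85 against 16.1 CPM, led by *Kdr* at 6.46 and 14.3 CPM. The part of these cells or of free RNA in the differences above was not tested.

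The low-marker cells were then set beside young cells under the same limit of 1 per 10000. Within this limit the 5 genes still differed, since 351 of the 703 old cells and 745 of the 938 young cells had no UMI of them. Of 6162 genes, 104 were lower in old low-marker cells than in the 938 young cells under 1 (1.69%) and 91 were higher (1.48%). Of 6 measured metallothionein and stress genes 3 were higher in old low-marker cells and none was lower, and of 12 immediate early genes 7 were lower and none was higher. *Mt2* had 20.8 CPM in old low-marker and 0.545 CPM in these young cells, *Sult1a1*, a sulfotransferase, 178 and 41.2 CPM, and *Clca3a1*, a chloride channel regulator, 54.0 and 11.03 CPM. Of the published aging list 28 of 33 measured genes were higher and none was lower, and of the list lower with age 21 of 72 were lower and none was higher. All 4 measured MHC class II genes were higher. The minimum of 20 CPM was asked of these 2 groups. A gene that reached it in old low-marker cells alone, such as *Mt2*, could only be higher. One that reached it in the young cells alone could only be lower, so these counts are partly set by the minimum.

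Among the lower genes, *Plac8*, a gene of early progenitors, had 2.74 CPM in low-marker cells, 2.80 CPM in high-marker cells and 68.4 CPM in all young cells, so that this difference between the old and young libraries did not follow the markers. *Socs2*, an inhibitor of cytokine signalling, had 13.7, 30.3 and 75.1 CPM. Immediate early genes, which many stimuli switch on quickly, were lower too: *Fos* had 62.0 CPM in low-marker, 76.8 CPM in high-marker and 279 CPM in young cells, and *Egr1* 43.3, 85.5 and 157 CPM. With 1 library per age, a difference between ages and a difference between library preparations cannot be told apart.

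Within the low-marker cells, those with no UMI of the 5 genes were compared with those that had at least 1. Of 6043 genes, 70 were lower in cells without a UMI (1.16%) and 10 were higher (0.165%). The published aging genes differed little, with 2541 and 2672 CPM, and the list lower with age had 3150 and 4284 CPM. The S phase list had 1644 and 2180 CPM and the G2/M list 2279 and 3303 CPM. A cell with 1 such UMI or more can be under the limit only with over 10000 UMIs, so the rule itself makes the second group deeper, and these values are a description only.

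Bulk libraries were used to see how the same genes behave with age. They are separate libraries, but the 5 rule genes are themselves higher in old HSCs in them, so the choice of cells is not independent of these data. Of 11279 genes tested with limma, 217 rose with age (1.92%) and 195 fell (1.73%) when both a 2-fold change and an adjusted p-value below 0.05 were asked for. Of the 157 genes lower in low-marker cells, 57 (36.3%) rose with age and 1 fell, with a median log2 fold change of 0.81 and 142 above 0. Of 247 tested genes higher in low-marker cells, 50 (20.2%) fell with age and 2 rose, with a median of -0.56. When all genes above 0 FPKM were tested, 50 genes rose and 11 fell, 17 of the risen genes being among the lower and 3 of the fallen among the higher genes of low-marker cells. Without young replicate 1 or 2, 113 and 127 genes fell. Bulk libraries cannot tell fewer cells of a kind from less RNA per cell.

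*Klrb1c* had 5.32, 5.14 and 4.82 FPKM (reads scaled to transcript length and library size) in the young libraries and 35.9, 42.0 and 56.8 FPKM in the old ones, with no overlap. Its log2 fold change was 2.89 ± 0.20 (SE, limma adjusted p = 8.32e-06). *Cldn5* had 4.81, 1.75 and 3.83 FPKM in young and 44.4, 34.1 and 40.0 FPKM in old libraries (log2 fold change 3.24 ± 0.27, limma adjusted p = 4.16e-05). *Vwf* had 29.5, 16.5 and 18.1 FPKM in young and 60.9, 41.6 and 64.2 FPKM in old libraries, which were all above the young ones, with a log2 fold change of 1.36 ± 0.23 (limma adjusted p = 0.00476). When all genes above 0 FPKM were tested, *Klrb1c* and *Cldn5* still passed and *Vwf* did not. *Chrm3* (2.53), *Dnm3* (1.90), *Nrg4* (1.75), *Neo1* (1.68) and *Lbhd2* (1.40) also rose by the log2 fold changes given, although *Lbhd2* no longer passed without old replicate 1 (1.33) or 2 (1.38), and *Dnm3*, *Neo1* and *Lbhd2* did not pass when all genes above 0 FPKM were tested. *Rdh10* (1.22, limma adjusted p = 0.067, passing at 1.53 without young replicate 2), *Hoxb8* (0.71, limma adjusted p = 0.332) and *Klf2* (-1.23, limma adjusted p = 0.518) did not pass, and *Klf2* varied between 0.385 and 30.5 FPKM among the young libraries.

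Of the 12 genes with the highest ratio in single cells, 8 fell with age, by log2 fold changes of -1.56 (*Mki67*) to -3.45 (*Ube2c*). *Cenpf* (-1.33, limma adjusted p = 0.0648), *Tpx2* (-1.31, limma adjusted p = 0.0635) and *H1f1* (-1.40, limma adjusted p = 0.103) did not pass. They did pass without old replicate 3 (*Cenpf*, -1.75), old replicate 1 (*Tpx2*, -1.62) and young replicate 2 (*H1f1*, -1.85). *H3c3* was too low to be tested. None of the 8 passed when all genes above 0 FPKM were tested, and besides *H1f5* and *Pbk* each lost its call without at least 1 library. Without limma's trend *Ccnb2*, *Pclaf*, *Tk1*, *Birc5*, *Ube2c* and *Pbk* did not pass. With a pseudocount of 0.1 *Ccnb2*, *Pclaf* and *Ube2c* did not pass. Other genes higher in low-marker cells fell as well. *Serpinb1a* had 46.1, 47.3 and 52.7 FPKM in young and 16.5, 21.02 and 28.4 FPKM in old libraries, a log2 fold change of -1.14 ± 0.18 (limma adjusted p = 0.00404) that was -0.96 and under 2-fold without old replicate 1. *Rnase6* had 75.5, 101 and 95.1 FPKM in young and 10.8, 13.5 and 10.6 FPKM in old libraries, and fell by 2.85 ± 0.16 on the log2 scale. *Pf4* had 548, 433 and 323 FPKM against 98.0, 129 and 94.9 FPKM, and fell by 1.99 ± 0.18. *Mki67* had 7.95, 7.32 and 5.81 FPKM against 2.89, 0.661 and 2.09 FPKM, with no overlap and a log2 fold change of -1.56 ± 0.32 (limma adjusted p = 0.015), which did not pass without young replicate 1 (-1.47) or 2 (-1.52). *Aldh1a1*, with close levels in low-marker and high-marker cells, had 40.1, 39.6 and 41.6 FPKM in young and 119, 90.1 and 105 FPKM in old libraries, and rose by 1.34 ± 0.13. When all genes above 0 FPKM were tested, *Rnase6* and *Aldh1a1* still passed, while *Serpinb1a*, *Pf4* and *Mki67* did not.

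**Figure D5:**
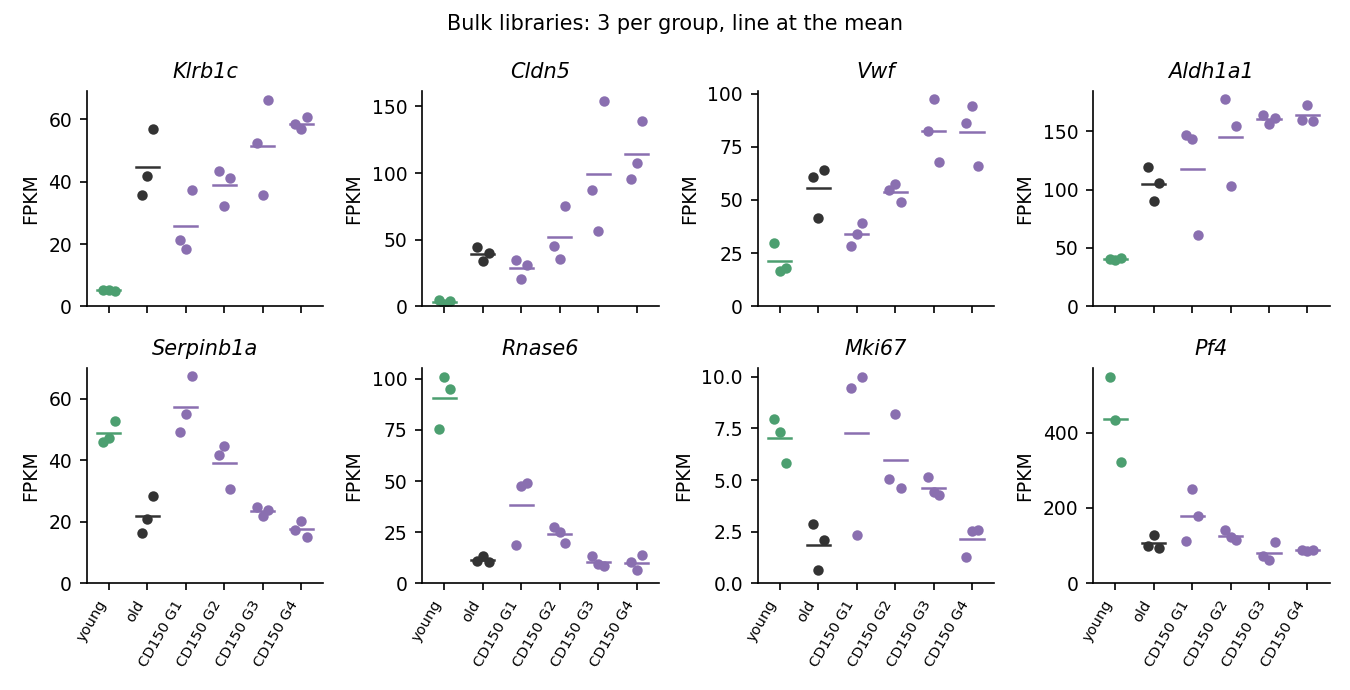
FPKM of 8 genes in each bulk library (points) for young HSCs, old HSCs and old HSCs of CD150 groups 1 to 4 (CD150 G1 to G4), with the mean of 3 libraries as a line. *Klrb1c*, *Cldn5* and *Vwf* are higher in CD150 group 4 than in group 1 and *Serpinb1a* and *Rnase6* lower, while *Aldh1a1* is above the young libraries in all 4 groups.

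The CD150 groups of old HSCs gave a second set of libraries, all from old mice. The 5 rule genes had slopes above 0 in these libraries, with 3 of them called. The study had also picked CD150 with the help of scores from these scRNA-seq cells. The choice of cells is thus not independent of these data either. Of 11673 genes, 32 rose (0.274%) and 13 fell (0.111%) along groups 1 to 4 at an adjusted p-value under 0.05 in limma's linear term. Of the 157 genes lower in low-marker cells 15 (9.55%) rose and none fell, with a median slope of 0.14 log2 units per group and 137 above 0, and of the 247 tested higher genes 4 (1.62%) fell and none rose, with a median slope of -0.13. When all genes above 0 FPKM were tested, 16 genes rose and 1 fell, with 5 and 1 of them among the lower and higher genes of low-marker cells. Without a library of group 4, 18 to 20 genes rose and 4 to 6 fell. Without a library of group 2 or 3, other than group 2 replicate 1, 7 or 8 fell. Among all genes compared in single cells 17 rose (0.282%) and 4 fell (0.0663%). The CD150-related gene lists were drawn from these same libraries, so their counts here would not be independent evidence and are not given.

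*Slamf1* itself rose by 0.61 ± 0.07 log2 units per group, from 15.2 to 29.4 FPKM in group 1 to 79.3 to 102.3 FPKM in group 4. The groups were sorted by CD150, which *Slamf1* encodes, so its slope describes the sort and is not independent evidence. *Cldn5* had 35.0, 20.3 and 31.0 FPKM in group 1 and 95.8, 107 and 139 FPKM in group 4, with a slope of 0.68 ± 0.11 (limma adjusted p = 0.00932). *Vwf* had 28.6, 33.8 and 39.1 FPKM in group 1 and 86.2, 94.0 and 65.9 FPKM in group 4, a slope of 0.44 ± 0.07 (limma adjusted p = 0.00932). *Klrb1c* had 21.4, 18.6 and 37.5 FPKM in group 1 and 58.4, 56.9 and 60.6 FPKM in group 4 (slope 0.40 ± 0.08, limma adjusted p = 0.0435), a call that was lost without any 1 of 9 of the 12 libraries, with slopes of 0.34 to 0.42, and also with a pseudocount of 0.1 or without limma's trend. The calls of *Cldn5*, *Vwf* and *Klrb1c* were lost when all genes above 0 FPKM were tested, and that of *Slamf1* was kept. In each of these genes the libraries of groups 1 and 4 did not overlap, and all libraries of group 1 were above the young libraries for *Klrb1c* and *Cldn5*.

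*Serpinb1a* ran from 49.0, 54.9 and 67.5 FPKM in group 1, overlapping the young libraries, to 17.4, 20.4 and 14.9 FPKM in group 4, with a slope of -0.56 ± 0.06 (limma adjusted p = 0.000282). The study names *Serpinb1a* among genes that go down with CD150 in these same libraries, so its slope is not independent evidence. *Nkg7* had 44.2, 84.7 and 151 FPKM in group 1 and 23.9, 14.7 and 26.3 FPKM in group 4 (slope -0.69 ± 0.11, limma adjusted p = 0.0114), which did not pass without group 4 replicate 2 (-0.63). *Rnase6* had 18.7, 47.5 and 49.0 FPKM in group 1, below every young library, and 10.2, 6.34 and 13.9 FPKM in group 4 (slope -0.64 ± 0.12, limma adjusted p = 0.0211), which did not pass without group 1 replicate 2 (-0.58) or group 4 replicate 1 (-0.68) or 2 (-0.60). When all genes above 0 FPKM were tested, *Serpinb1a* still passed, while *Nkg7* and *Rnase6* did not. The cell cycle lists and *Pf4* were less clear. None of the 41 tested S phase or 54 tested G2/M genes passed, although the slope was below 0 for 41 and 48 of them, and *Pf4* (slope -0.36, limma adjusted p = 0.11) and *Mki67* (slope -0.40, limma adjusted p = 0.251) did not pass. Without group 1 replicate 2 *Mki67* did pass (-0.57). *Aldh1a1* (slope 0.19, limma adjusted p = 0.407), *Maf* (slope 0.02, limma adjusted p = 0.907) and *Mt1* (slope 0.16, limma adjusted p = 0.48), which were within 1.5-fold between low-marker and high-marker cells, did not pass either.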

How the data were processed

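The scRNA-seq counts are UMI counts per gene and cell as deposited; the authors made them with Cell Ranger 3.0.2 on mm10 with the protein-coding genes of Ensembl release 102. The bulk values are FPKM as deposited. The authors aligned with HISAT2 2.0.0 and name HTSeq 0.12.4 and DESeq2 1.22.2, while the tool behind the FPKM is not clearly given. Read depth of the bulk libraries is unknown, and each table has 21835 rows with mitochondrial genes at 0.

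Cells of the old and young libraries were kept from 800 detected genes upward and up to 5% mitochondrial UMIs (2758 of 3720 and 1104 of 1459 barcodes). UMIs were summed over cells, 10215027 in low-marker and 8931517 in high-marker cells, and scaled to CPM without the 5 rule genes. CPM carry exact Poisson and ratios exact conditional intervals. Doublets were left in. Phases were scored with scanpy 1.11.5, and no replicate test is possible. Bulk FPKM were tested with limma 3.58.1 in R 4.3.3 (limma-trend, log2(FPKM + 1), genes averaging 1 FPKM or more in any group compared, Benjamini-Hochberg adjustment). Genes with repeated symbols were summed.

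Named genes are the 5 rule genes, the 12 lowest and 12 highest ratios past 1.5-fold with at least 20 CPM, and list members with at least 20 CPM. The cells, lists and tests were chosen with earlier results of these data known. *Vim*, *Socs2*, *Sult1a1*, *Clca3a1* and *Rnase6* were singled out and named after their values were seen. The sources used here do not say whether bulk replicates of young and old HSCs are separate mice, so p-values measure the spread between libraries. The labels give the CD150 groups the same 3 mice; the CD150 tests have no term for the mouse, and a fit with the mouse as a block was an alternative. Deviations of libraries from the same mouse correlated between -0.43 and 0.49. The fold comparison with its intervals and the limma tests were tried on simulated data, while the phase scores and list sums were not.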

Additional observations from a re-analysis of the deposited data

How the results depend on the processing

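Of 875 single-gene values in single cells, 861 kept their side of 1.5-fold, 9 moved inside it and 5 past it. Among these 875, no value past 1.5-fold changed sign, while 26 within it did, all of *Aldh1a1*, *Calcrl*, *Kit*, *Maf*, *Meis1* and *Prtn3*. The 12 highest genes all fell under 20 CPM in cells scored G1 and in cells of 10000 to 20000 UMIs. Their values there, some of which are given above, are not among the 875. In G1 cells the ratios of *H1f5*, *Birc5* (-1.48), *Ube2c* (-1.67) and *Pbk* changed sign, and *Tk1* had no UMI in low-marker cells. Also under 20 CPM were 5 of the 12 when thinned first and 6 with equal weights. *Ccnb2*, *Mki67* and *Pbk* had no UMI in cells at or over 8 and so no ratio. The published aging genes (log2 ratio -0.64) stood at -0.57 in cells of 10000 to 20000 UMIs, -0.59 with cells weighted equally, -0.48 in G1 cells, -0.68 for low-marker cells without a marker UMI and -0.70 against cells at or over 8. Without *Clu*, *Selp*, *Gpr183* or *Sbspon* in the rule they stood at -0.60, -0.56, -0.60 and -0.61. The genes lower with age (1.48) stood at 1.203 when thinned first, 0.81 at 10000 to 20000 UMIs, 1.11 with equal weights, 0.50 in G1 cells, 1.22 without a marker UMI, 1.58 against 8, and 1.33, 1.32, 1.45 and 1.40 without *Selp*, *Gpr183*, *Sbspon* or *Ramp2*. Genes higher in low-marker cells numbered 122 at 10000 to 20000 UMIs, 162 with equal weights, 97 in G1 cells, 107 at 50 CPM and 111 past 2-fold. Lower genes numbered 101 in G1 cells, 55 at 50 CPM and 37 past 2-fold. In G1 cells of 10000 to 20000 UMIs, chosen after seeing the data, the lists stood at -0.49 and 0.51 and 103 genes were lower and 100 higher. HSC identity genes (-0.19) turned to 0.026 in G1 cells and to 0.034 in those of 10000 to 20000 UMIs.

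In bulk, testing all genes above 0 FPKM, and so more genes of low level, left 50 genes higher and 11 lower in old HSCs, of which 17 were among the lower and 3 among the higher genes of low-marker cells, and 16 rising and 1 falling with CD150, of which 5 and 1. A pseudocount of 0.1 left 8 falling genes, and limma without its trend 2 higher genes that fell. Leaving out 1 library gave 154 to 212 genes higher and 113 to 218 lower in old HSCs, 46 to 53 of the lower and 34 to 62 of the higher genes, and for CD150 18 to 34 rising, 4 to 14 falling, 10 to 16 and 2 to 8. Fewest genes were lower in old HSCs without young replicate 1 (113) or 2 (127), and fewest rose with CD150 without a library of group 4 (20, 18 and 18). With 1 library left out, the CD150 slope of *Neo1* ran from -0.024 to 0.196 and that of *H3c3* from -0.030 to 0.098, turning below 0 without 2 and 4 of the libraries, and that of *Maf* from -0.041 to 0.055, and none was a call. The cause was not tested. With the mouse as a replicate block, 36 genes rose and 15 fell with CD150, 20 and 6 of them among the lower and higher genes. Same-numbered young and old libraries correlated at 0.03 to 0.11 and share only a number; a block there gave 217 genes higher and 202 lower in old HSCs.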

Other observations

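The same marker value was read in cells recovered 14 days after transplantation of old HSCs, of which 66.5% of 2406 cells from the CD150-low and 60.8% of 1933 cells from the CD150-high graft were under 1 per 10000, and 25 and 15 cells were at 5 or more. After thinning to 10000 UMIs the shares under 1 were 51.2% and 47.1%. These libraries are deeper (medians of 19436 and 30651 UMIs), were kept at 2000 detected genes, and hold many cells outside the HSC gate, so their shares are not set against those of sorted HSCs.

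Some lists barely differed between low-marker and high-marker cells. The 90 ribosomal protein genes differed by -0.08 and the 11 chaperones by 0.13 on the log2 scale, with no gene past 1.5-fold. Of 10 glycolysis genes 1 was higher and none was lower.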
